A study of Mus musculus with 19 samples.

Results

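The sperm small RNA reads described here are long reads of 35 to 45 nt that matched no annotated small RNA. A distinct sequence was included when it was 35 to 45 nt long, did not end in CCA, had 10 or more reads in at least 4 of the 19 libraries, and matched no GENCODE miRNA, rRNA, Mt_rRNA, Mt_tRNA, snoRNA, snRNA, scaRNA, ribozyme or misc_RNA transcript sense, with at most 1 mismatch. This rule gave 29729 members among 158815 distinct sequences of any length with 10 or more reads in at least 4 libraries. The members were therefore selected on their read counts. Of the 46071 such sequences of 35 to 45 nt, 316 ended in CCA and 16026 matched a small RNA. The reference used here held no 28S or 45S rRNA and no nuclear tRNA, so fragments of those RNAs can be among the members. The 4092 members that passed in exactly 4 libraries had a median level of 0.136 reads per 1000000 deposited reads (RPM) and a highest level of 1.25 RPM. The 5414 sequences that failed with exactly 3 libraries had a median of 0.111 RPM and a highest level of 0.964 RPM. Here and below, the level of a sequence or family is the mean of the 4 group means, unless a group is named.

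Sperm came from the cauda epididymis of wild-type C57BL/6J mice that were 8 weeks old at the start and received corn oil vehicle (control) or dicyclohexyl phthalate (DCHP) at 10 mg/kg body weight by daily oral gavage for 4 weeks. The labels list DCHP oral gavage as the treatment of every library, so the titles were used to tell control from DCHP libraries. RNA of 15 to 50 nt was cut from a gel and sequenced by traditional RNA-seq (5 control and 5 DCHP libraries) or by PANDORA-seq (4 control and 5 DCHP libraries), in which the RNA is treated with the demethylase AlkB and with T4 polynucleotide kinase before adapters are ligated. The study describes the PANDORA-seq libraries as biological replicates of mice, and the labels and methods do not mention pooling. The p-values cover the spread between these libraries. PANDORA-seq libraries held 25432054 to 56506344 reads, and traditional libraries held 21588335 to 52099239.

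Sperm carries many fragments of rRNAs and tRNAs, called rsRNAs and tsRNAs. Many of these fragments have methylated bases that stop or miscode reverse transcription, or ends to which adapters are not ligated. AlkB removes methyl groups from some bases, and T4 polynucleotide kinase converts such ends into ones that can be ligated. Histidine tRNAs receive an extra G at the 5′ end after transcription, and many mitochondrial tRNAs are methylated at the ninth base of the standard tRNA numbering.

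Members that share their first 20 or their last 20 bases were joined into families, by sequence alone. The families were numbered by their level. The leading members of the families on which the results turn are printed as DNA letters, 5′ to 3′, as they stand in the deposited counts. The first set shows 4 members of family 1 that share a start and differ in the 3′ end, with the shared first 20 bases in capitals.
Family 1, 36 nt: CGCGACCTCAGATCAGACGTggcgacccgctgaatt
Family 1, 35 nt: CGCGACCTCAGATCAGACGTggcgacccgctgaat
Family 1, 40 nt: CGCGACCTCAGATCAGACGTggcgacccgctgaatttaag
Family 1, 37 nt: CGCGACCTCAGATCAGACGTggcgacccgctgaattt
The second set shows family 2, whose leading members start with 2 G before the first base of mt-Th as annotated, the mitochondrial histidine tRNA (chromosome M, 11546 to 11612, plus strand, GRCm38). Capitals mark base 10 of the member, where members of this family differ.
Family 2, 42 nt: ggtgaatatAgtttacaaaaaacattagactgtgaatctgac
Family 2, 44 nt: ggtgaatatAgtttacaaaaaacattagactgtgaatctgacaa
Family 2, 42 nt with T: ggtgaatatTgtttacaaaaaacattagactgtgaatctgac
Family 2, 42 nt with G: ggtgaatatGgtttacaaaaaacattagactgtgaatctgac
The third set shows the leading members of families that were higher in PANDORA-seq, together with family 5, which was not. Capitals mark a last base or last 3 bases that the matched small RNA lacks (families 6 and 12) or a base at which reads of the same sequence differed (family 9). Only the last 30 bases of the 37-nt family 6 member are printed.
Family 4, 42 nt: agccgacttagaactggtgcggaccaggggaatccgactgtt
Family 5, 44 nt: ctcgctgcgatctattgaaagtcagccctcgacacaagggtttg
Family 6, 37 nt, last 30 bases: ccgcctgggaataccgggtgctgtaggctT
Family 8, 41 nt: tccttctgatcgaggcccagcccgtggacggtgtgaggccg
Family 9, 38 nt: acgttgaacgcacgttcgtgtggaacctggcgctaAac
Family 9, second member, 38 nt: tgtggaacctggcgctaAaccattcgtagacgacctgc
Family 11, 44 nt: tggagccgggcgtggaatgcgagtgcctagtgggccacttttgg
Family 12, 45 nt: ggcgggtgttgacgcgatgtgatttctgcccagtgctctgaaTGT

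A small number of families held most of the reads. The 29729 members formed 3739 families, of which 2403 had 1 member and 240 had 10 or more. Family 1 alone held 36.9% of the members' summed level, and the 12 leading families, with 10691 members, held 79.5%. The 100 leading families held 97.8%. The first 20 bases of family 1 are those with which mammalian 28S rRNA starts, as background that could not be checked against the reference used here. Families are sets of overlapping fragments and not independent RNAs. Linked instead by any shared run of 25 bases, families 5, 9 and 13 fell into 1 group of 2098 members, in some cases only through other families, families 4 and 21 into another of 1083 members, families 7 and 20 into 1 of 1136, and families 10, 19 and 25 into 1 of 1836.

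Sequence ends differed in sharpness between families. In family 1, 90.5% of the level began at 1 position, and the 36-nt leader held 51.6% of the family level. Family 6 was the reverse, with 95.1% of its level at 1 3′ end and 77.5% in the 37-nt leader. Families 8 and 9 were ragged. Their leaders held 19.9% and 14.03% of the family level, and the most used start held 40.02% and 21.5%. Over all members, lengths of 35 and 36 nt held 18.3% and 23.9% of the level, and 42 nt held 10.3%.

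The content of G and C was close to that of matched sequences, and its order depended on the weighting. Counting each sequence once, 54.1% of bases were G or C in members and 52.2% in the 16026 sequences of 35 to 45 nt that matched a small RNA. Weighted by level, it was 55.5% in members, 52.7% in members without family 1 and 57.4% in matched sequences. Weighted by level, 41.8% of members' reads began with C, which was mostly family 1: without family 1, C was the first base of 9.70%, T of 34.97%, G of 28.3% and A of 27.1%. No test was run on composition.

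Most members had no match of any kind, and the others resembled a known small RNA or matched another transcript. Neither a GENCODE transcript with at most 1 mismatch nor a looser relation to a small RNA was found for 18323 members (61.6%), which held 75.7% of the level, and families 1, 3, 4, 5, 8, 9 and 11 were wholly of this kind. A further 3008 members (10.1%, 16.1% of the level) matched a small RNA once up to 4 end bases were removed, and 1447 members (4.87%) matched one with 2 to 4 mismatches. Of the members without such a relation, 6861 (23.1%, 4.76% of the level) matched another transcript on the sense strand and 90 only on the antisense strand. With the relatives of small RNAs included, 7243 members matched a transcript on the sense strand.

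Among the relatives of small RNAs, 1522 members were mt-Th once end bases were removed, and 796 of these were mt-Th with 2 extra G at the 5′ end and nothing else. Another 305 members, such as the leader of family 6, were 5S rRNA with 1 3′ T that the annotated transcript lacks. Whether this T is encoded was not tested. These members had 12123 ± 5466 RPM (SD, n = 4) in PANDORA-seq control and 11154 ± 2226 (SD, n = 5) in PANDORA-seq DCHP. They had 711 ± 48.1 (SD, n = 5) in traditional control and 1036 ± 436 (SD, n = 5) in traditional DCHP. In family 7, 242 of 736 members matched a small RNA with 2 to 4 mismatches. Over all members, 243 matched 5.8S rRNA in this way. These had 9639 ± 5150 RPM (SD, n = 4) in PANDORA-seq control and 1086 ± 188 (SD, n = 5) in traditional control. The leader of family 12 matched a miRNA hairpin once its last 3 bases were removed, and 16 members matched a hairpin once a 3′ TGT was removed. The level of these 16 members was 2560 ± 654 RPM (SD, n = 4) in PANDORA-seq control and 122 ± 63.3 (SD, n = 5) in traditional control. Such a match does not show that the reads came from a miRNA hairpin or that TGT was added to one. Whether they came from an rRNA that the reference lacked was not tested.

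Members were searched for signs of tRNA 3′ ends. Of 23101 members of at most 42 nt, 9551 had 20 or more reads that were the member with 3 more bases, and in 72 of these at least 50% of such extensions were CCA, the end that is added to tRNAs. These 72 members held 0.493% of the level. The letters GTTCGANTC, which resemble the conserved T loop of tRNAs, were found on the sense strand in 381 members (1.28%) and in 0.337% of the matched sequences of the same length. Of the 72 members with CCA extensions, 0 held these letters. The shorter letters GGTTCGA, which overlap them, were found on the sense strand in 1214 members (4.08%) and in 1.30% of the matched sequences, and 1 of the 72 members (1.39%) held them. A match of letters is a description and does not show that a member is a tRNA fragment.

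Reads of 35 to 45 nt made up more of a PANDORA-seq library than of a traditional one, and did not differ detectably with DCHP. Their share did not use the members. It was 43.5% ± 5.85 (SD, n = 4) in PANDORA-seq control, 47.5% ± 7.12 (SD, n = 5) in PANDORA-seq DCHP, 16.97% ± 3.33 (SD, n = 5) in traditional control and 19.2% ± 2.60 (SD, n = 5) in traditional DCHP. The 9 PANDORA-seq libraries, at 36.6% to 54.6%, did not overlap the 10 traditional ones, at 14.4% to 22.2%. Between methods, the two-sided exact permutation test gave p = 0.0159 in control and p = 0.00794 in DCHP, both with a Benjamini-Hochberg adjusted p of 0.0317 over 4 comparisons. For DCHP against control, the exact p was 0.429 in PANDORA-seq libraries and 0.286 in traditional libraries (adjusted p = 0.429 and 0.381). When DCHP libraries with the same replicate number were paired, the exact sign-flip p between methods was 0.0625, the smallest that 5 pairs allow.

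The members held a larger part of the long reads in traditional RNA-seq and a larger part of all reads in PANDORA-seq. Of the reads of 35 to 45 nt, members were 46.2% ± 3.80 (SD, n = 4) in PANDORA-seq control, 49.2% ± 3.39 (SD, n = 5) in PANDORA-seq DCHP, 76.2% ± 2.83 (SD, n = 5) in traditional control and 77.9% ± 3.50 (SD, n = 5) in traditional DCHP. Of all reads, they were 20.1% ± 3.26 (SD, n = 4), 23.5% ± 4.73 (SD, n = 5), 12.99% ± 2.99 (SD, n = 5) and 14.9% ± 2.10 (SD, n = 5) in the same order. The summed level in PANDORA-seq was 1.55 ± 0.435 times that of traditional RNA-seq in control and 1.57 ± 0.386 times in DCHP, and in both the libraries of the 2 methods overlapped. Between libraries that share a number, PANDORA-seq was higher in each of the 5 DCHP pairs and in each of the 4 control pairs. Without family 1 the ratios were 2.16 and 2.25, and the libraries did not overlap. Per read on miRNA hairpins they were 7.68 and 9.13, but hairpin reads differed in kind between the methods. Reads of 20 to 24 nt, the length of mature miRNAs, were 9.62% to 19.6% of hairpin reads in PANDORA-seq libraries and 83.7% to 92.6% in traditional libraries. Per hairpin read of 20 to 24 nt, a denominator added after the data had been seen, the ratios were 52.9 ± 29.8 and 54.02 ± 25.5. The ratio of DCHP to control was 1.17 ± 0.302 in PANDORA-seq libraries and 1.15 ± 0.310 in traditional libraries, within the spread between libraries. The members were chosen on counts, so these sums carry no test.

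Most members passed the read count in 1 method alone, as did most sequences of any kind. In at least 4 libraries of a method, 10 or more reads were found for 23212 members (78.1%) in PANDORA-seq, for 11194 (37.7%) in traditional RNA-seq and for 5530 (18.6%) in both. Of all 158815 sequences, 79210 passed in PANDORA-seq, 104149 in traditional RNA-seq and 28986 in both. A further 853 members reached 4 libraries only over both methods together. No traditional library held a read of 658 members, and no PANDORA-seq library a read of 770. In all 19 libraries, 1908 members had 10 or more reads.

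With all deposited reads as the denominator, the 12 leading families fell into 4 kinds by method. Per read on miRNA hairpins, the ratio between methods for all members together rose from 1.55 to 7.68 in control and from 1.57 to 9.13 in DCHP. The kinds can therefore depend on the denominator, and the families were not sorted again per hairpin read. Families 4 and 6 to 12 were higher in PANDORA-seq, by 7.68-fold to 24.3-fold in summed level, with no overlap between the libraries of the methods. Family 2 was lower in PANDORA-seq in control and in DCHP. Families 1 and 5 had similar means in both methods with overlapping libraries. Family 3 overlapped as well, and in traditional RNA-seq most reads with its start were shorter than 35 nt.

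Family 1 was the most abundant in every group, and its level varied by library more than by method or exposure. Its summed level was 58983, 38874, 70683 and 84746 RPM in the 4 PANDORA-seq control libraries and 51881, 73883, 40949, 47393 and 95578 RPM in the 5 PANDORA-seq DCHP libraries. It was 55693, 62266, 61142, 58221 and 92966 RPM in traditional control and 66367, 71867, 51173, 69861 and 102989 RPM in traditional DCHP. All 4 groups overlapped, and the ratio of PANDORA-seq to traditional was 0.959 in control and 0.855 in DCHP. The 36-nt leader differed between methods by a log2 fold change of 0.34 ± 0.427 (SE; edgeR adjusted p = 0.460) in control and 0.23 ± 0.474 (adjusted p = 0.658) in DCHP.

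The 3′ ends of family 1 did differ between the methods. The 35-nt member, 1 base shorter than the leader, had 4282 ± 748 RPM (SD, n = 4) in PANDORA-seq control and 19923 ± 4827 (SD, n = 5) in traditional control. The 40-nt member went the other way, with 10106 ± 6390 RPM (SD, n = 4) against 969 ± 329 (SD, n = 5). The lowest PANDORA-seq control library of the 40-nt member, at 4383 RPM, lay above the highest traditional control library, at 1414 RPM. Of all reads with the same first 20 bases, 47.3% in PANDORA-seq control and 46.1% in traditional control were 30 to 34 nt long, so the family continues below the length limit. All lengths together had 106819 ± 26135 RPM (SD, n = 4) in PANDORA-seq control and 116720 ± 29923 (SD, n = 5) in traditional control.

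Family 2, the 5′ part of mt-Th with 2 extra G, was the only one of the 12 families whose libraries were all lower in PANDORA-seq. Its summed level was 1060, 3483, 945 and 3040 RPM in PANDORA-seq control and 12347, 4168, 9394, 7985 and 2793 RPM in PANDORA-seq DCHP. It was 16501, 25731, 33238, 21054 and 58720 RPM in traditional control and 52442, 29574, 40708, 51495 and 35027 RPM in traditional DCHP. Every traditional library lay above every PANDORA-seq library. The ratio of PANDORA-seq to traditional was 0.069 in control and 0.175 in DCHP.

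The 42-nt leader of family 2 had a log2 fold change between methods of -5.31 ± 0.618 (SE; edgeR adjusted p = 1.51e-06) in control and -4.98 ± 0.534 (adjusted p = 3.22e-07) in DCHP. The 44-nt member, 2 bases longer, differed less between the methods. It had 1341 ± 985 RPM (SD, n = 4) in PANDORA-seq control and 2344 ± 1323 (SD, n = 5) in traditional control, and in DCHP 4958 ± 3029 and 3117 ± 744 (SD, n = 5 each), with overlapping libraries. Of the family level, 65.98% in PANDORA-seq control and 74.4% in PANDORA-seq DCHP were 44 nt long, and 10.4% and 9.92% in traditional control and DCHP. Lengths of 42 nt held 18.8% and 8.98% in PANDORA-seq and 52.8% and 53.5% in traditional RNA-seq. The length shift was not tested, since it uses the counts that chose the members.

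The 2 G were present in nearly every read. Of the reads of 35 to 45 nt that hold the first 26 bases of mt-Th, 99.3% carried GG directly before them in PANDORA-seq control and in PANDORA-seq DCHP, and 99.4% in each traditional group. A single G was found in 0.0285% to 0.0576% by group mean. The reference used here gives the gene without the base before it, so whether 1 of the 2 G is encoded was not tested.

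Base 10 of family 2 was 1 of several bases read differently by the 2 methods. Among reads of the 42-nt member that differ from it at most at that base, another base was found in 6.49%, 6.94%, 2.51% and 6.07% in the PANDORA-seq control libraries and in 3.56%, 6.83%, 6.18%, 7.15% and 5.85% in PANDORA-seq DCHP. In traditional RNA-seq it was found in 16.1%, 26.4%, 26.8%, 27.3% and 22.6% of control reads and in 21.3%, 21.9%, 23.1%, 19.4% and 18.7% of DCHP reads. The methods did not overlap, and the exposure groups did within each method. In traditional control, 13.7% of reads had T and 9.95% had G there, against 1.98% and 3.46% in PANDORA-seq control. In the 44-nt member, which is another set of reads, the values were 1.72% and 1.39% in PANDORA-seq control and DCHP and 11.4% and 9.78% in traditional control and DCHP. Near the 3′ end, base 42 of the 42-nt member was another base, nearly always A, in 3.10% to 5.03% of reads in PANDORA-seq libraries and 7.69% to 10.3% in traditional libraries. Base 43 of the 44-nt member was another base in 0.511% to 1.11% and 5.34% to 8.00%. In traditional control 6.39% of reads had another base there and 5.76% had C, and in traditional DCHP 6.66% and 6.05%. In PANDORA-seq control and DCHP, C was found in 0.250% and 0.163%. A read with C at that base ends in CCA, which the rule for members excludes. The methods did not overlap at either base. Because the positions were picked after the values were seen, no test was made, and the part of a modified base in it was not tested.

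Another base was also read at a fixed place in family 9. In the leader, 16.9% and 15.9% of reads in PANDORA-seq control and DCHP, and 9.50% and 7.27% in traditional control and DCHP, had another base than the A in capitals, almost always G. The methods overlapped in control, where 1 traditional library had 17.4% and the lowest PANDORA-seq library 16.2%, and did not overlap in DCHP. The same A stands in capitals in the second member, where 29.4% and 29.7% of PANDORA-seq reads and 23.2% and 22.9% of traditional reads had another base. The methods overlapped here too, with traditional control libraries from 14.7% to 35.98%. In family 1, the highest share of another base at any base of the leader was 0.561%, as a mean over all 19 libraries.

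The families that were higher in PANDORA-seq were so both in control and in DCHP. For family 4, the summed level was 11028, 7293, 9024 and 13257 RPM in PANDORA-seq control against 1184, 344, 1006, 704 and 652 RPM in traditional control. In DCHP it was 18863, 19270, 9430, 12662 and 18355 RPM against 609, 893, 277, 2018 and 341 RPM. The leader of family 4 had a log2 fold change of 3.80 ± 0.522 (SE; edgeR adjusted p = 5.6e-06) in control and 4.41 ± 0.707 (adjusted p = 1.17e-05) in DCHP.

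Family 6, led by 5S rRNA with a 3′ T that the annotated transcript lacks, had 19318, 13326, 6047 and 10518 RPM in PANDORA-seq control and 714, 648, 765, 714 and 765 RPM in traditional control. In DCHP it had 9212, 11934, 10650, 14936 and 9874 RPM against 729, 1604, 560, 1401 and 959 RPM. Members of 37 nt held 89.9% of the family level in PANDORA-seq control and 39.7% in traditional control, where the other lengths held more. The leader differed by a log2 fold change of 5.39 ± 0.502 (SE; edgeR adjusted p = 3.48e-07) in control and 4.67 ± 0.576 (adjusted p = 1.02e-06) in DCHP.

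The ratio of PANDORA-seq to traditional in family 8 was 22.7 among control and 24.3 among DCHP libraries. Without traditional DCHP replicate 4, the ratio in DCHP was 40.3 in family 8, 29.7 in family 4 and 38.5 in family 11, against 18.99 and 23.9 with it in families 4 and 11. Its PANDORA-seq control libraries had 14088, 8510, 8049 and 8334 RPM, and its traditional control libraries had 568, 261, 533, 435 and 345 RPM. In DCHP, the values were 8386, 13944, 7129, 9274 and 10609 RPM in PANDORA-seq and 247, 398, 150, 1052 and 185 RPM in traditional RNA-seq. Families 7 and 9 to 12 lay in the same direction, and their leaders had log2 fold changes of 3.09 to 5.63 in control and 4.23 to 5.26 in DCHP, each with an edgeR adjusted p of 5.18e-05 or less.

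Family 5 had no such gap. Its summed level was 5512, 4775, 4719 and 5728 RPM in PANDORA-seq control and 5868, 6649, 4094, 2367 and 5057 RPM in traditional control, a ratio of 1.08. In DCHP it was 14763, 10477, 4286, 6885 and 11168 RPM against 7448, 10037, 2594, 4493 and 13483 RPM, a ratio of 1.25. The leader's log2 fold change between methods was 0.20 ± 0.425 (SE; edgeR adjusted p = 0.663) in control and 0.42 ± 0.524 (adjusted p = 0.453) in DCHP.

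Family 3 had 333 members, of which the 35-nt leader held 85.7% of the level. Its summed level ranged from 4537 to 12225 RPM (median 8962) in PANDORA-seq control, from 3714 to 34611 RPM in PANDORA-seq DCHP, from 5960 to 19471 RPM in traditional control and from 7323 to 10349 RPM in traditional DCHP. The groups overlapped. Reads of any length with its first 20 bases had 14495 ± 7082 RPM (SD, n = 4) in PANDORA-seq control and 199560 ± 30886 (SD, n = 5) in traditional control. The share of those reads at 35 to 45 nt was 56.0% and 5.25%. The members of family 3 thus show the long end of a set of reads that was shorter in traditional RNA-seq.

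Most members tested were called between the methods, as were most sequences of any kind. Sequences of every length with 10 or more reads in at least 4 of the libraries compared were fitted together, and calls needed an adjusted p below 0.1 and more than a 2-fold change (edgeR's quasi-likelihood test, all deposited reads as library size). In control, 13434 of 15564 members were called, against 76389 of all 89738 sequences. Of the members, 9301 were higher and 4133 lower in PANDORA-seq. Of all 89738 sequences tested, 35.6% were higher and 49.6% were lower. The median log2 fold change was 2.20 over members and -1.06 over all sequences. In DCHP, 14587 of 21314 members were higher and 4371 lower, against 41.0% and 47.9% of all 106739 sequences, with medians of 3.27 and -0.58. These medians depend on single libraries through the filter. Without PANDORA-seq control replicate 1, 2, 3 or 4, the control medians over members were 0.32, 0.46, 0.54 and 0.23, and those over all sequences were -2.65, -2.61, -2.69 and -2.98. Without 1 traditional control library, the median over all sequences in control was -0.40 to 0.22, above 0 only without replicate 3. In DCHP that median was 0.67, 0.04, 0.74, 0.60 and 0.61 without traditional replicate 1, 2, 3, 4 or 5, and -1.71, -1.49, -1.27, -1.42 and -1.50 without PANDORA-seq replicate 1, 2, 3, 4 or 5.

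These counts follow in part from the rule, since a member that passed the read count in 1 method alone was favoured to differ. Among sequences read in at least 4 libraries of each method, a split chosen after the data had been seen, 2739 of 5459 members (50.2%) were higher and 1150 (21.1%) lower in control, against 40.0% and 26.2% of all 28705 such sequences. In DCHP, 2944 of 5523 members (53.3%) were higher and 947 (17.1%) lower, against 44.8% and 24.7% of 28865. Their median log2 fold changes were 1.15 and 1.38, against 0.48 and 0.74 for all such sequences. With reads on miRNA hairpins as library size, 11391 members were higher and 2368 lower in control, and the median of all sequences moved from -1.06 to 1.26. In DCHP, 17168 members were higher and 2726 lower, and the median of all sequences moved from -0.58 to 1.92. Of all sequences, 44624 were then higher and 32606 lower in control, and 57055 and 39464 in DCHP.

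The calls with the smallest adjusted p came from many families among the higher members and from 1 among the lower. In control, the 10 higher members came from families 6, 71, 86, 66, 27, 8, 33, 30 and 10, led by a 37-nt member of family 6 with 8.06 RPM (4.00 to 13.02) in PANDORA-seq and 0.00384 RPM (0 to 0.0192) in traditional control. That member passed the filter through PANDORA-seq alone and so was favoured to differ. The 10 lower members were all of family 2, both in control and in DCHP. Within family 2, 1663 of 1691 members tested were lower in control and 0 were higher, and in DCHP 1728 of 1911 were lower and 10 higher, against 49.6% and 47.9% of all sequences lower. In PANDORA-seq 294 members of family 2 passed the filter and in traditional libraries 2504, so most of these were favoured by the filter to be lower.

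Between DCHP and control, the main edgeR fit, with the filter on the libraries compared and no replicate block, called no member in either method. In PANDORA-seq, edgeR called 0 of 23212 members, with 1532 at an unadjusted p below 0.05. Of all 79210 sequences, edgeR called 1 (0.00126%), with 3710 at an unadjusted p below 0.05. DESeq2 called 21 of the members, 20 of them higher with DCHP, and 117 of all sequences, 100 of them higher. In traditional RNA-seq, edgeR called 0 of 11194 members, with 655 at an unadjusted p below 0.05. Of all 104149 sequences, edgeR called 0 (0%), with 6658 at an unadjusted p below 0.05. DESeq2 called 11 of the members, 9 of them lower with DCHP, and 217 of all sequences, 192 of them lower. The interaction of method and exposure was past an adjusted p of 0.1 for 0 of 5530 members (0% of 28986 sequences), with 353 of the members and 1799 of all at an unadjusted p below 0.05. DESeq2 was not run on the interaction.

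Family 2 had the largest shift with DCHP in PANDORA-seq among the 12 families. Its summed level was 3.44-fold that of control, and the lowest DCHP library, at 2793 RPM, lay below 2 of the 4 control libraries. Of 294 members tested, 211 had an unadjusted p below 0.05 and all 211 were higher, and the main edgeR fit called 0. The median log2 fold change was 1.68 over the 294 against 0.21 over all members. Members of a family are overlapping forms counted in the same libraries. Their numbers, here and below, are therefore not independent support for a shift. Of the 21 members that DESeq2 called, 16 were of family 2 and all 16 were higher. Without the filter on the libraries compared, edgeR called 727 of 158815 sequences, 607 of them higher, and 220 members. Of these, 135 were of family 2 and all 135 were higher, 20 of them with 10 or more reads in fewer than 4 of the libraries compared. In traditional RNA-seq the ratio was 1.35, and 56 of 2504 members had an unadjusted p below 0.05, all of them higher. This was a smaller share than the 655 of 11194 over all members in the same fit. The median log2 difference between the methods in the DCHP effect was 1.28 over 290 members, of which 82 had an unadjusted p below 0.05.

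Members of family 2 were also described singly, and the first of these was picked by its p. The member with the smallest p among those higher in PANDORA-seq DCHP was 45 nt long, at 0.202 RPM (0.0694 to 0.319) in control and 1.39 RPM (0.612 to 2.39) in DCHP. Its log2 fold change was 2.75 ± 0.588 (SE; edgeR adjusted p = 0.602). The control and DCHP libraries of this low-level member did not overlap. Its fold change and this gap follow in part from the choice by p, and do not measure the shift of the family. The more abundant 44-nt member had control and DCHP libraries from 329 to 2351 and from 1677 to 9379 RPM, which overlapped.

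Families 4, 5 and 9, singled out for their numbers of members with a low unadjusted p, had smaller shifts of the same sign in PANDORA-seq. The DCHP to control ratios of their summed levels were 1.55, 1.84 and 1.40. An unadjusted p below 0.05 was found for 80 of 829, 126 of 392 and 116 of 920 members, higher in 79, 126 and 116 of these. Over all members it was found for 1532 of 23212, and over all sequences for 3710 of 79210. With the filter, edgeR called 0 members of families 4, 5 and 9, and so did DESeq2. Without the filter, edgeR called 2 members of family 9, both higher, and 0 of families 4 and 5. In family 5, the DCHP libraries from 4286 to 14763 RPM overlapped the control libraries from 4719 to 5728 RPM. In traditional RNA-seq the ratios were 1.06, 1.58 and 0.891. The ratio of family 4 there depends on DCHP replicate 4, without which the mean of the DCHP libraries lay below that of control. Families 3 and 11 had PANDORA-seq ratios of 1.72 and 1.49, with 5 of 151 and 44 of 471 members at an unadjusted p below 0.05. Family 12 had a ratio of 1.24, with DCHP replicate 1 at 9898 RPM and the others at 4581 to 6119 RPM. Families 1, 6, 7, 8 and 10 had ratios of 0.875 to 1.01. The smallest p of all members in PANDORA-seq was that of a 37-nt member of family 71, lower in DCHP by a log2 fold change of -3.76 ± 0.773 (SE; edgeR adjusted p = 0.602). It had 1.32 to 35.2 RPM in control and 0.604 to 1.57 RPM in DCHP, and these ranges overlapped.

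By level, most of the matches to other transcripts lay on a few genes. Lars2, mitochondrial leucyl-tRNA synthetase (chromosome 9, 123366927 to 123462666, plus strand, GRCm38), was matched by 1682 members, all in its 3′ UTR, and family 10 was the leading family. Their level was 11314 ± 914 RPM (SD, n = 4) in PANDORA-seq control, 13090 ± 2631 (SD, n = 5) in PANDORA-seq DCHP, 826 ± 279 (SD, n = 5) in traditional control and 808 ± 454 (SD, n = 5) in traditional DCHP. A match to a transcript does not show that the read came from that gene. Tmem38b, an intracellular ion channel (chromosome 4, 53826045 to 53862019, plus strand), was matched by 332 members, all in its 3′ UTR at a copy of 5S rRNA. These were led by family 6 and also match 5S rRNA once an end base is removed.

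Outside these 2 genes, 2753 members matched exactly 1 protein-coding gene, over 803 genes. Their level was 1542 ± 154 RPM (SD, n = 4) in PANDORA-seq control, 1677 ± 310 (SD, n = 5) in PANDORA-seq DCHP, 146 ± 87.4 (SD, n = 5) in traditional control and 113 ± 56.5 (SD, n = 5) in traditional DCHP. The libraries of the methods did not overlap. Of all members, 17682 passed the read count in PANDORA-seq alone and 5664 in traditional RNA-seq alone. This gap thus follows in part from the rule and was not tested. The ratio of DCHP to control was 1.09 in PANDORA-seq libraries and 0.773 in traditional libraries.

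The genes of highest level were described singly, and no test was made of what they share. Akr1b7, an aldose reductase-like enzyme (chromosome 6, 34412334 to 34423142, plus strand), was matched by 322 members, of which 255 lay in coding sequence. Its members had 490 ± 98.5 RPM (SD, n = 4) in PANDORA-seq control and 45.6 ± 34.6 (SD, n = 5) in traditional control, and 168 of 179 tested were higher in PANDORA-seq, against 35.6% of all sequences. Members that pass only through PANDORA-seq were favoured by the filter to be higher. Crisp1, a protein that the epididymis secretes onto sperm (chromosome 17, 40293758 to 40319207, minus strand), was matched by 199 members, with 171 ± 52.1 RPM (SD, n = 4) and 15.2 ± 11.1 (SD, n = 5) in the same groups. Members on Akr1b8, Akr1b10 and Crisp3 were all shared with other genes. Ptgs2, Itm2b and Serpina1f had 70 to 71 members each and 40.7 to 48.7 RPM in PANDORA-seq control. The nuclear long noncoding RNAs Neat1 and Malat1 were matched by 456 and 305 members, with 360 ± 158 and 256 ± 84.1 RPM (SD, n = 4) in PANDORA-seq control and 8.72 ± 3.95 and 12.5 ± 6.22 RPM (SD, n = 5) in traditional control.

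Smcp, a protein of the sperm mitochondrial capsule (chromosome 3, 92583867 to 92588997, minus strand), had members of both directions. It was matched by 66 members, 45 of them in the 5′ UTR. Its level was 15.7 ± 4.94 RPM (SD, n = 4) in PANDORA-seq control and 17.7 ± 5.29 (SD, n = 5) in traditional control. Of 26 members tested in control, 9 were higher and 17 lower in PANDORA-seq, against 35.6% and 49.6% of all sequences. In DCHP, 17 of 29 were higher and 12 lower, against 41.0% and 47.9%.

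Members on lists of marker genes were counted in the same way, beside 35.6% higher and 49.6% lower among all sequences tested in control. Most of them passed the filter through PANDORA-seq, as with the epididymal genes, of whose members 239 passed in PANDORA-seq and 11 in traditional libraries, so these counts follow in part from the filter. Of 20 mature sperm and spermatid genes, 10 were matched by 123 members with 50.5 ± 10.1 RPM (SD, n = 4) in PANDORA-seq control and 19.6 ± 5.77 (SD, n = 5) in traditional control. Of 40 of those members tested in control, 23 were higher and 17 lower in PANDORA-seq. Of 14 epididymal genes, 5 were matched by 245 members with 199 ± 55.1 RPM (SD, n = 4) and 16.4 ± 12.1 (SD, n = 5), and 82 of 87 tested were higher. Of 10 blood and somatic cell genes, 8 were matched by 44 members with 25.5 ± 3.93 RPM (SD, n = 4) and 2.54 ± 3.14 (SD, n = 5), and 13 of 15 were higher. In traditional control the median of these members' summed level was 1.17 RPM, and 1 library had 8.10 RPM. Of 13 mitochondrial mRNAs, 6 were matched by 49 members with 24.1 ± 13.7 RPM (SD, n = 4) and 1.50 ± 0.568 (SD, n = 5), and 8 of 9 were higher. The study treated sperm with a buffer that lyses somatic cells. Sequences that match genes of cells other than sperm were read in libraries of every group, and their part in the other results was not tested. For DCHP against control, the main edgeR fit called 0 members of the 4 lists in either method. In traditional RNA-seq only 43 sperm, 11 epididymal, 0 blood and somatic and 2 mitochondrial members were tested. No call was thus possible there for blood and somatic genes. In PANDORA-seq, 2 of 80 sperm, 14 of 239 epididymal, 2 of 38 blood and somatic and 0 of 49 mitochondrial members tested had an unadjusted p below 0.05, beside 3710 of all 79210 sequences. DESeq2 called 2 of the 239 epididymal members in PANDORA-seq, beside 117 of all 79210 sequences, and 0 members of the other lists in either method.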

How the data were processed

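Per the labels and the study's methods, sperm RNA of 15 to 50 nt was sequenced with the NEBNext small RNA kit, and reads were annotated with SPORTS1.1 (1 mismatch allowed) on mm10. The authors deposited counts of each distinct cleaned read of 15 to 45 nt, with no normalization, annotation or molecular identifiers. Trimming settings are not given in the sources used here. The following was computed from those counts. Sequences were matched, without gaps, to GENCODE M21 transcripts (GRCm38). The annotated 18S rRNA was read on the reverse strand, because 0 reads matched it exactly as annotated and 50149755 matched its reverse. The nuclear tRNAs, 28S and 45S rRNA were not used here.

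Levels are reads per 1000000 deposited reads, without a pseudocount. Counting error alone is small at these depths for the leading families. Counts were fitted with edgeR 4.0.16 in R 4.3.3 (DESeq2 1.42.0 as an alternative) on all sequences with 10 or more reads in at least 4 of the libraries compared, with Benjamini-Hochberg adjustment over all of them. Thresholds are those of the study, adjusted p below 0.1 and fold change above 2. The study normalized to miRNA, which was an alternative here. On counts simulated for the comparisons, with 200 of 20000 sequences changed 8-fold and a dispersion of 0.2, 100% of the changed sequences were recovered and 7.83% to 10.7% of calls were false. The simulation used the 20000 sequences of highest mean level. Recovery of smaller changes, of sequences of lower level or at another dispersion was not tested. It therefore does not show how many true DCHP changes the fits could have missed. Shares were compared with exact permutation tests (scipy 1.17.1).

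Replicate numbers are shared between groups. Deviations from the group means over 20000 sequences were correlated between libraries that share a number. Between PANDORA-seq and traditional DCHP libraries, r was 0.176 to 0.342, over 0.1 in each of the 5 pairs. Between PANDORA-seq and traditional control libraries, r was -0.036 to 0.123. There, 3 of 4 PANDORA-seq libraries correlated most with the traditional library of their own number, as did 5 of 5 in DCHP. In the exposure comparisons the lowest r was below 0, and 0 libraries correlated most with their own number. The study states that RNA from sperm of control and exposed sires went into both methods. The main fits and the main permutation tests between methods did not use this pairing. It was used in the sign-flip tests and in the replicate block, which are alternatives. What a number stands for is not given. No libraries of a group were alike within counting noise (chi-square per sequence of 1326 or more).

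Families named are the 12 of the highest level, each by its leader, with the 10 calls of smallest adjusted p per direction and at most 15 transcripts. Variable bases, family lengths, overlap groups, Neat1 and Malat1 were chosen after their values were seen. The rule printed only sequences with a reference match; leaders without one are printed as well, because they carry most of the level, and some sequences are not reported here. The members and all lists were chosen with earlier results of these data known.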

Additional observations from a re-analysis of the deposited data

Results flagged for a closer look

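Of 80 groups of 4 or 5 values checked (the summed levels of the 12 families and the shares of reads with another base), 6 had a library far from the others of its group, by the gap to its nearest neighbour against the range of the group. Chance gives about 1 such group in 20. Family 1 in traditional control replicate 5 had 92966 RPM, with the others at 55693 to 62266 RPM. Family 8 in PANDORA-seq control replicate 1 had 14088 RPM, with the others at 8049 to 8510 RPM. Traditional DCHP replicate 4 was high for family 8, at 1052 RPM against 150 to 398 RPM, and for family 10, at 787 RPM against 223 to 369 RPM. Family 12 in PANDORA-seq DCHP replicate 1 had 9898 RPM, with the others at 4581 to 6119 RPM. In the 44-nt member of family 2, 1.11% of reads in PANDORA-seq control replicate 3 had another base at base 43, with the others at 0.651% to 0.672%. None of these values reaches the libraries of the other method in families 8, 10 and 12.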

How the results depend on the processing

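Between methods, more members were called higher than lower in PANDORA-seq under each setting run. In control, 13434 members called became 25639 without the filter on the libraries compared, 3183 over the 20000 sequences with the highest mean level, which leaves 3543 members to test, and 8458 to 12731 with each library left out. In DCHP, 18958 became 3399 over the 20000 highest and 15427 to 18749 with each library left out. Without PANDORA-seq control replicate 1, 2, 3 or 4, the control counts were 8585 (4481 higher and 4104 lower), 8588 (4570 and 4018), 8704 (4734 and 3970) and 8458 (4336 and 4122), because a member with 10 reads in the other 3 alone then fails the filter of 4 libraries. For DCHP against control in PANDORA-seq, 0 became 220 without the filter, 21 with DESeq2 and 1 with the replicate block; in traditional RNA-seq, 0 became 11 with DESeq2. The cause of these differences was not tested. The replicate block, which pairs libraries by number, gave 19185 in DCHP and 12340 in control between methods, and in traditional RNA-seq and for the interaction it called 0 members, as without it.

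The share of long reads between methods, paired by number in the replicate block, had an adjusted exact p of 0.25 in control and 0.125 in DCHP, and without 1 library 0.0571 to 0.0714 in control, where fewer permutations exist. The number of members was 16377 with a minimum of 20 reads and 58860 with 5. The ratio of summed levels between methods was 7.68 in control and 9.13 in DCHP per miRNA hairpin read, 52.9 and 54.02 per hairpin read of 20 to 24 nt (added after the data had been seen), and 2.16 and 2.25 without family 1. Depth limits the members whose counts are near the minimum of 10 reads.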
